A study of Mus musculus with 27 samples.

Results

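The Krüppel-like factors (KLFs) described here are 10 mouse genes, Klf2, Klf4, Klf5, Klf6, Klf7, Klf9, Klf10, Klf13, Klf15 and Klf16, picked by symbol from the 55367 gene symbols of 2 RNA-seq count tables. One table holds 15 libraries of L4-L5 dorsal root ganglia, which contain the sensory neurons of the sciatic nerve. The other holds 12 libraries of retinal ganglion cells, the neurons that connect eye and brain, transferred to lysis buffer as single cells; the number of cells per library is not stated. The ganglion groups were labelled Ptpn2 knockout with sciatic injury, Ptpn2 knockout with sham surgery, injured wild type given RU521 (a small-molecule inhibitor of the DNA sensor cGAS), injured wild type, and wild type with sham surgery. The retinal groups were Ptpn2 knockout with interferon gamma (IFNγ), Ptpn2 knockout with PBS, wild type with IFNγ, and wild type with PBS. Each group had 3 libraries. All retinal groups, controls included, came from Ptpn2 flox eyes given an AAV carrying Cre or GFP 2 weeks before optic nerve injury, and all had that injury. Ganglia and cells were taken 3 days after injury. The sham ganglia are called intact in their titles, and the series text places the RU521 injection in the sciatic nerve and speaks of nerve samples. Neither the Cre that deletes Ptpn2 in ganglia nor the age of the mice is stated.

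KLFs are transcription factors with a C-terminal block of zinc fingers that binds GC-rich and CACCC-type DNA. The fingers are alike across the family, whereas the N-terminal parts differ and recruit co-activators or co-repressors such as Sin3a, Hdac1 and Ctbp1. In central neurons the family is known for its opposed effects on axon growth: Klf6 and Klf7 promote it, and Klf4 and Klf9 suppress it. Klf2 is best known from endothelium, Klf5 from epithelium and smooth muscle, Klf10 as an early TGF-beta response gene, and Klf15 as a glucocorticoid-induced regulator of fuel use. Klf13 regulates the chemokine gene Ccl5 in T cells, and Klf16 is a GC-box repressor.

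Promoters are shown for the growth-promoting and growth-suppressing pairs, because the contrast between these 4 genes runs through the results and because KLFs themselves bind such boxes. RefSeq (GRCm38.p6) sequences running from 250 bases before to 50 bases after the start site were matched for 7 of the 10 members. Capitals mark GC boxes (GGGCGG on either strand, so also CCGCCC) and CACCC boxes (CACCC on either strand, so also GGGTG).
Klf6: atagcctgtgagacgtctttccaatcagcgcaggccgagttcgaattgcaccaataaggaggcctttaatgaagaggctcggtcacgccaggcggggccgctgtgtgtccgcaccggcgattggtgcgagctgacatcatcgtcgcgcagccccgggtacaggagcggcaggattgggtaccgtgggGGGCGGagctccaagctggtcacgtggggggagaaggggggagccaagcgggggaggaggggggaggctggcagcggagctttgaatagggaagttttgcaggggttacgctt
Klf7: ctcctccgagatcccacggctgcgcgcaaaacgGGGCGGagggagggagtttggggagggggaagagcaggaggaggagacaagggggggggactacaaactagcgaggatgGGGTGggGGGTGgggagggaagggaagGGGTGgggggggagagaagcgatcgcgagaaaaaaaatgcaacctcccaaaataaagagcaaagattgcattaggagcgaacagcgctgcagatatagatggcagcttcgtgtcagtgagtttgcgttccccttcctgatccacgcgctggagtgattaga
Klf4: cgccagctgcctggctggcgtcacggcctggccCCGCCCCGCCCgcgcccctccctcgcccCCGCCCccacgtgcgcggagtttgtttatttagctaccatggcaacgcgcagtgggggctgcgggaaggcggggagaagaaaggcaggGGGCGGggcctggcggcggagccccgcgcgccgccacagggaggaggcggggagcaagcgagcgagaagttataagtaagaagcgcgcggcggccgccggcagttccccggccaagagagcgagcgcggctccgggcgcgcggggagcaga
Klf9: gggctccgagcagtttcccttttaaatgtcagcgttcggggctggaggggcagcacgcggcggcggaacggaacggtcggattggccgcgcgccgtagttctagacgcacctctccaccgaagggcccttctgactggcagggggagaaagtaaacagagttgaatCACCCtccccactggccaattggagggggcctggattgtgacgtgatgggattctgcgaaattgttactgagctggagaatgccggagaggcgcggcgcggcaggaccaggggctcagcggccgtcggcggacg
The intervals are chr13:5861239-5861538 (plus strand) for Klf6, chr1:64121340-64121639 (minus) for Klf7, chr4:55532426-55532725 (minus) for Klf4 and chr19:23140976-23141275 (plus) for Klf9. The Klf7 start site lies inside the gene span of the ganglion count table, which ends at 64122282. Klf4 held 4 GC-box matches, Klf6 and Klf7 held 1 each and Klf9 held 0, where 35.7% of 32851 mouse promoters hold at least 1. Klf7 held 3 CACCC matches, Klf9 held 1, and Klf4 and Klf6 held 0, where 57.5% of all promoters hold one. Klf9 also held 1 match to TGANTCA, the AP-1 element (in 7.81% of promoters), and 1 to TTCNNNGAA, the interferon-gamma activated element (in 8.3%). Neither was found in the other 6 promoters. Both strands were searched, and a match describes the letters only.

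Levels are counts per 1000000 after TMM scaling (CPM). Fold changes are log2 values from an edgeR quasi-likelihood fit with their standard errors (SE), and a gene is called where its Benjamini-Hochberg adjusted p over all genes tested is under 0.05. Labels do not say whether libraries come from separate animals, so p-values measure the spread between these libraries, which may be technical. Totals ran from 14813365 to 22414750 counts in ganglia and from 13239988 to 17122057 in retinal cells, where 3 counts, the floor of detection used here, equal 0.131 to 0.208 CPM and 0.168 to 0.287 CPM. Among wild-type sham ganglia, replicates 1 and 3 stood apart from replicate 2, with 26235 and 26802 detected genes against 34115, and mitochondrial shares of 4.87% and 6.52% against 15.2%. Each of the 10 sensory neuron markers was detected in ganglia (summed level 4527 to 11450 CPM) and each of the 10 retinal ganglion cell markers in retinal groups (2756 to 6916 CPM). Ptpn2 itself averaged 12.8 ± 2.69 CPM in knockout sham and 14.6 ± 4.10 CPM in wild-type sham ganglia, and 23.0 ± 4.10 CPM in knockout injured against 17.7 ± 1.97 CPM in wild-type injured ganglia (SD, n = 3 each). The knockout sham mean was lower by less than the spread between libraries (-0.19 ± 0.22, adjusted p = 0.872). In the retinal groups labelled knockout the means were not lower (IFNγ and PBS 13.1 and 8.64 CPM, against 7.98 and 7.06 CPM in wild type). The deleted exon is not given, and counts over whole genes do not check the genotype labels, so knockout below means the libraries labelled so.

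All 10 members were detected in all 15 ganglion libraries, and all 10 passed the filter on low counts there. Per kilobase of exon, Klf13, Klf7 and Klf6 held the top 3 places in each of the 5 groups, and Klf2 and Klf4 held the last 2. Klf6 averaged 50.6 ± 2.75 CPM per kb in knockout injured ganglia and 39.4 ± 5.82 in wild-type injured ganglia, the first place in both (SD, n = 3 each). In both sham groups it held place 3, at 23.8 ± 2.26 and 23.2 ± 1.35 CPM per kb in knockout and wild type. Klf13 and Klf6 could not be ordered in either injured group, since Klf6 was the higher in 2 of 3 libraries of each. Klf10 stood above Klf9 in wild-type injured ganglia (13.7 ± 0.25 against 11.0 ± 0.92 CPM per kb) and below it in wild-type sham ganglia (9.58 ± 1.08 against 14.2 ± 2.74), with no overlap in either group. The growth suppressor Klf4 was the scarcest member in 3 of the groups, at 1.08 to 1.61 CPM per kb over the 5.

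**Figure D1:**
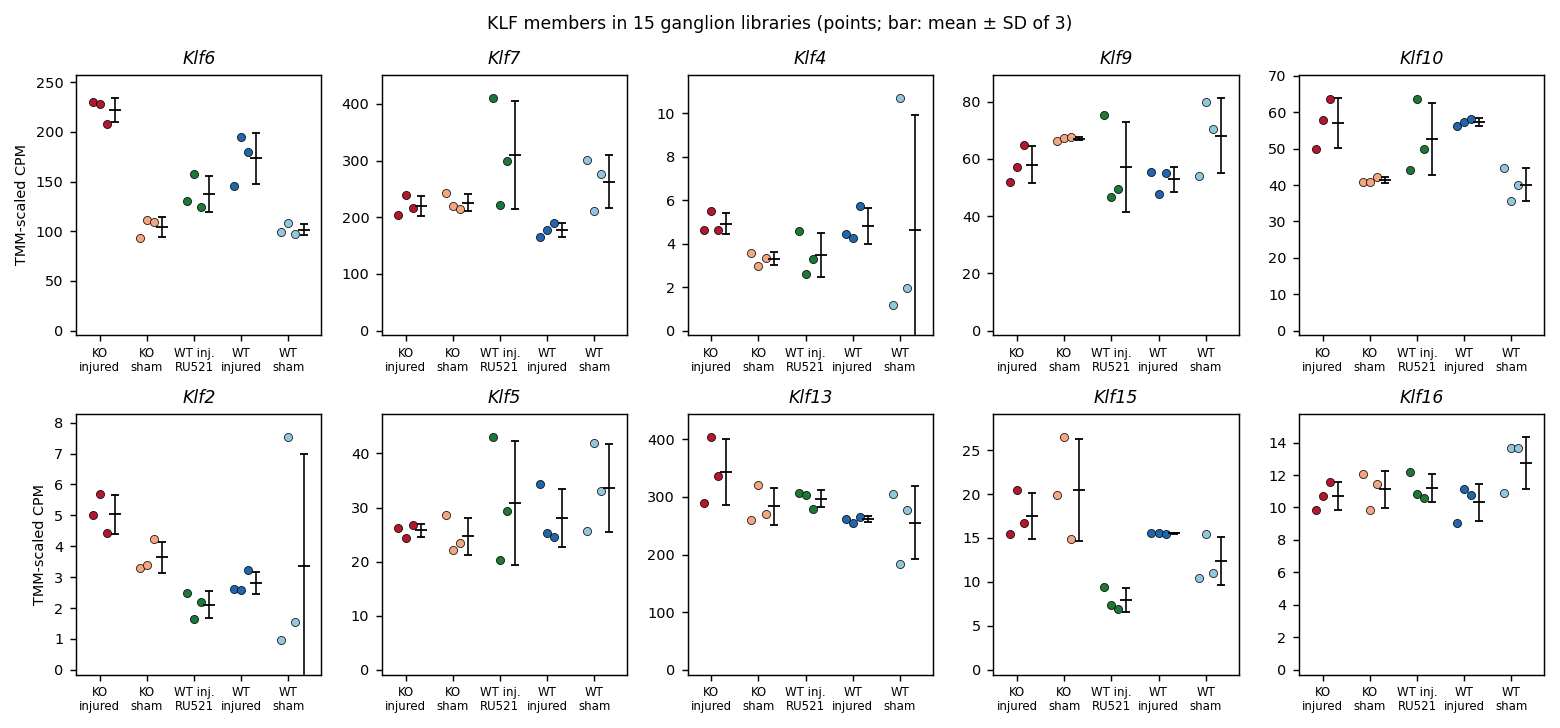
Level of each member (y axis, TMM-scaled CPM) in the 5 ganglion groups (x axis); each point is 1 library and bars are mean ± SD of 3, cut off at the foot of a panel where they reach below 0. Klf6 was higher in every injured than in every sham library of its genotype, and in the Klf4 and Klf2 panels 1 wild-type sham library lay far above the other 2.

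Of the 10 members, Klf6 and Klf10 rose after sciatic injury in wild-type ganglia and none fell; 16.6% of the 18517 genes tested were called in this comparison. The members' median log2 change was -0.10, against 0.00038 for all genes. Klf6, on chromosome 13 (5861482 to 5870394, plus strand, GRCm38), encodes a growth-promoting member also induced by wounding in many tissues. It stood at 145, 195 and 179 CPM in injured wild-type ganglia, against 98.9, 108 and 97.6 CPM in sham ganglia. The groups did not overlap, and the log2 change was 0.77 ± 0.14 (adjusted p = 0.00299). Klf10, on chromosome 15 (38291463 to 38300706, minus strand), stood at 56.2, 57.4 and 58.3 CPM in injured ganglia, against 44.6, 35.5 and 40.0 CPM in sham ganglia. Its log2 change was 0.52 ± 0.15 (adjusted p = 0.0259). With sham replicate 2 as the only sham library the changes were 0.72 for Klf6 (adjusted p = 0.0287) and 0.73 for Klf10 (0.0419), the lone library being assumed to vary like the others. The Klf10 call ended without sham replicate 3 (adjusted p = 0.0877) or without any 1 of the injured replicates 1, 2 and 3 (0.0655, 0.0891 and 0.0878).

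In knockout ganglia injury raised 1 of 10 members, Klf6, where 10.9% of genes were called. Klf6 stood at 230, 228 and 208 CPM in injured knockout ganglia, against 93.1, 111 and 109 CPM in sham knockout ganglia. Every injured library lay far above every sham library, with a log2 change of 1.09 ± 0.14 (adjusted p = 0.000152). Klf10 stood at 49.8, 57.8 and 63.6 CPM in injured and 40.9, 40.8 and 42.3 CPM in sham knockout ganglia, a log2 difference of 0.47 ± 0.15 that missed the threshold (adjusted p = 0.0518), although the libraries did not overlap. The difference between the injury effects of the genotypes was 0.32 ± 0.19 for Klf6 and -0.05 ± 0.21 for Klf10 (adjusted p = 0.641 and 0.972). In that interaction 0 members and 0.448% of genes were called; no member had an unadjusted p under 0.05, DESeq2 called 0 and limma-voom called 1, Klf7.

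Macrophage markers rose along with Klf6 after injury. Their summed level was 3046 to 3591 CPM in knockout injured, 719 to 997 in knockout sham, 2647 to 2775 in wild-type injured and 354 to 1104 in wild-type sham ganglia. Of 10 macrophage markers, 8 rose in knockout and 10 in wild-type ganglia after injury; among them Cd68, a lysosomal protein of macrophages, rose by 2.39 ± 0.37 in knockout and 1.92 ± 0.37 in wild type. Klf6 is expressed by macrophages as well as neurons, and in whole ganglia a change in the number of cells cannot be told from a change in RNA per cell. Their part in the Klf6 result was not tested. Under RU521, macrophage sums of 1049, 3138 and 2140 CPM stood beside Klf6 levels of 130, 158 and 124 CPM. There the highest of each was in the same library, but the lowest was not. The highest of each also shared a library in both sham groups and in knockout injured ganglia. In wild-type injured ganglia replicate 1 had the highest macrophage sum (2775 CPM) and the lowest Klf6 (145 CPM).

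Klf7, the other growth-promoting member (chromosome 1, 64029447 to 64122282, minus strand), was not raised by injury in either genotype. It stood at 166, 177 and 190 CPM in injured wild-type ganglia, against 301, 211 and 275 CPM in sham ganglia, so that every injured library lay below every sham library. Its log2 change was -0.56 ± 0.19 and missed the threshold (adjusted p = 0.0515). It was called lower by DESeq2 (0.026), limma-voom (9.88e-05), edgeR with DESeq2 size factors (0.0483) and edgeR with no filter on low counts (0.0137). Those fits called 4110, 9264, 3093 and 3614 of all genes, against 3070 in the main fit. With detected genes per library in the model the Klf7 change was -0.14 (0.639). It also depended on the sham libraries, at -0.71 without sham replicate 2 (adjusted p = 0.0049) and -0.20 without sham replicates 1 and 3 (0.643). In knockout ganglia Klf7 stood at 203, 238 and 216 CPM after injury, against 243, 219 and 215 CPM after sham surgery, with overlap and a log2 change of -0.04 ± 0.19. The interaction was 0.52 ± 0.26 (adjusted p = 0.555).

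Sensory neuron markers fell with Klf7 in wild type. Of 10 markers, 8 fell after injury in wild-type ganglia and 4 in knockout ganglia, among them Tac1, the substance P precursor (-1.48 ± 0.26 in wild type and -1.09 ± 0.26 in knockout), and Nefh, the heavy neurofilament chain (-1.76 ± 0.29 and -1.03 ± 0.29). Per 1000 CPM of summed neuron markers, Klf7 stood at 40.3, 50.01 and 44.0 CPM in knockout injured and 27.0, 31.1 and 31.5 in knockout sham ganglia. In wild type the same ratio was 30.8, 39.2 and 40.3 after injury, against 26.3, 30.2 and 24.6 after sham surgery. Relative to these markers, which injury itself lowers, Klf7 was thus higher in each injured library than in any sham library of its genotype. This ratio was formed with the values known and was not tested.

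**Figure D2:**
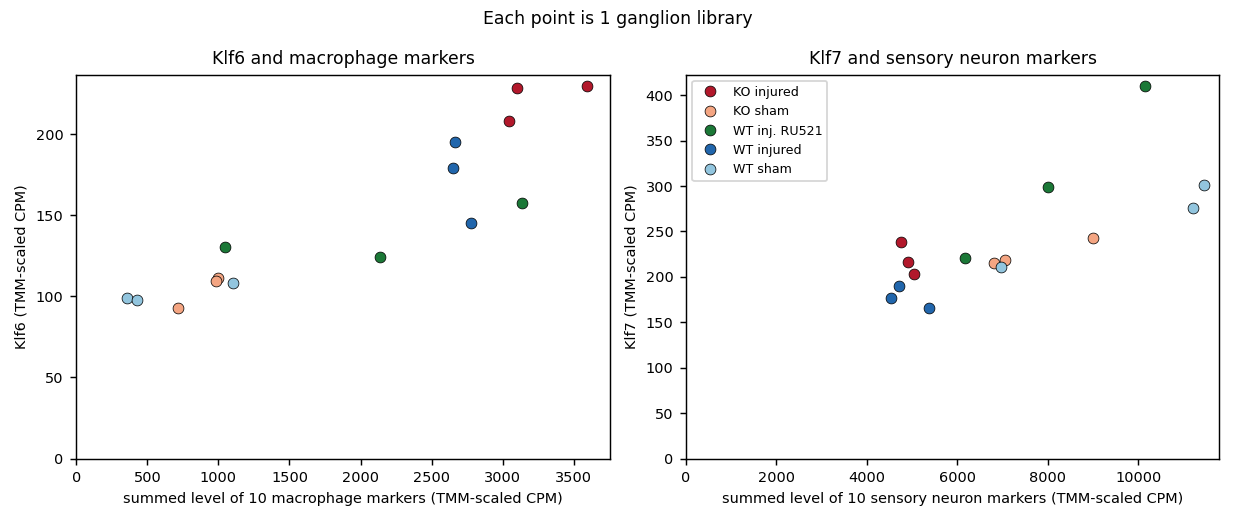
Klf6 against the summed level of 10 macrophage markers (left) and Klf7 against that of 10 sensory neuron markers (right), both axes in TMM-scaled CPM, 1 point per ganglion library. Sham libraries lie at the lower left for Klf6, and injured libraries without RU521 lie at sensory neuron sums of 4527 to 5385 CPM for Klf7, below all sham and RU521 libraries.

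Neither growth suppressor was called after injury in the main fit. In wild type limma-voom called Klf4 higher (1.41, adjusted p = 0.000511) and Klf9 lower (-0.34, adjusted p = 0.0245). That fit called 9264 of all genes, against 3070 in the main fit. Klf9, on chromosome 19 (23141226 to 23168134, plus strand), is a thyroid hormone and glucocorticoid response gene that represses neurite growth. It averaged 58.0 ± 6.49 CPM in knockout injured and 67.1 ± 0.61 CPM in knockout sham ganglia, and 52.9 ± 4.45 CPM in wild-type injured and 68.2 ± 13.2 CPM in wild-type sham ganglia (SD, n = 3 each). The log2 changes were -0.21 ± 0.18 in knockout (adjusted p = 0.523) and -0.37 ± 0.18 in wild type (0.180). The knockout libraries did not overlap, whereas in wild type sham replicate 1, at 53.9 CPM, lay among the injured libraries (55.6, 47.7 and 55.2 CPM).

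Klf4, on chromosome 4 (55527143 to 55532466, minus strand), is a pluripotency factor and a repressor of axon growth in retinal ganglion cells. In knockout ganglia it stood at 4.63, 5.49 and 4.63 CPM after injury, against 3.59, 2.99 and 3.33 CPM after sham surgery. These libraries, at 48 to 82 counts each, did not overlap. The change was 0.57 ± 0.56 and was not called (adjusted p = 0.583). In wild type Klf4 stood at 4.46, 4.24 and 5.74 CPM after injury, against 1.18, 10.7 and 1.98 CPM after sham surgery. The fit took in all ganglion groups. The SD of Klf4 was 5.29 CPM in wild-type sham ganglia, against 0.30 and 0.49 CPM in knockout sham and knockout injured ganglia. The part of the wild-type sham spread in the SE of the knockout change was not tested.

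The wild-type Klf4 change of 0.07 ± 0.55 (adjusted p = 0.942) therefore hangs on sham replicate 2. Without that library it was 1.60 (adjusted p = 0.00189). It was -0.40 without sham replicate 1, -0.29 without sham replicate 3 and -0.07 without injured replicate 3, with no call in these 3 cases. Klf2, the endothelial member on chromosome 8 (72319033 to 72321656, plus strand), behaved alike, at 2.62, 2.59 and 3.22 CPM in injured wild-type ganglia, against 0.96, 7.53 and 1.55 CPM in sham ganglia. Its change was -0.23 ± 0.53 with all libraries and 1.16 without sham replicate 2 (adjusted p = 0.0135). With sham replicate 2 as the only sham library it was -1.37 (0.0275), so that the direction of a Klf2 call depends on which sham libraries are used; the same fit gave -1.11 for Klf4 (0.0595). Over all 15 libraries, which share depth and preparation, Klf2 and Klf4 had a Pearson r of 0.857. Sham replicate 2 also had more endothelial marker RNA than sham replicates 1 and 3 (294 against 208 and 215 CPM summed over 10 markers) and more fibroblast marker RNA (3734 against 1574 and 1747 CPM over 6). The part of either in the 2 genes' values was not tested.

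Klf5, Klf13, Klf15 and Klf16 were not called after injury in either genotype in the main fit, while limma-voom called Klf15 higher in wild type (0.49, adjusted p = 0.0301). Klf5 (chromosome 14) changed by 0.06 ± 0.24 in knockout and -0.26 ± 0.24 in wild type. Klf13 (chromosome 7) was at 289, 404 and 337 CPM in injured and 259, 320 and 271 CPM in sham knockout ganglia, a change of 0.28 ± 0.17, and changed by 0.03 ± 0.17 in wild type. Klf15 (chromosome 6) changed by -0.22 ± 0.22 in knockout and 0.33 ± 0.22 in wild type, and Klf16 (chromosome 10) by -0.06 ± 0.18 and -0.30 ± 0.18.

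RU521 in injured wild-type ganglia raised Klf7 and lowered Klf15 among the 10 members; 9.58% of genes were called. Klf7 stood at 411, 221 and 299 CPM with RU521, against 166, 177 and 190 CPM in injured ganglia without it. No libraries overlapped, and the log2 difference was 0.80 ± 0.19 (adjusted p = 0.0156). Without RU521 replicate 1, the library with the highest value, it was 0.55 (adjusted p = 0.0911). Mitochondrial shares of 7.83%, 15.5% and 11.3% in RU521 replicates 1, 2 and 3 ran opposite to their Klf7 levels, and these libraries had 28803, 32488 and 30938 detected genes. The injured libraries without RU521 had 13.2% to 15.7% and 33275 to 34340 detected genes; the part of the mitochondrial share was not tested. The call also ended without injured replicate 1, 2 or 3 (adjusted p = 0.0529, 0.0647 and 0.0541), with differences of 0.76 to 0.86. With detected genes per library added to the model the difference was 0.53 (adjusted p = 0.024). Against sham ganglia (301, 211 and 275 CPM) the RU521 libraries overlapped, and Klf7 was not called, with a log2 difference of 0.24 ± 0.19 (adjusted p = 0.631).

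Neuron markers rose with Klf7 here as well, at summed levels of 10150, 6176 and 8009 CPM with RU521, against 5385, 4527 and 4722 CPM without it; 7 of 10 were called higher. The RU521 library with most Klf7 also had most neuron marker RNA. Per 1000 CPM of those markers Klf7 stood at 40.5, 35.8 and 37.3 with RU521, against 30.8, 39.2 and 40.3 without it, ranges that overlap. All 7 myelinating Schwann cell markers were lower with RU521 than without it, with sums of 8156 to 9942 CPM against 21850 to 23770 CPM. The injured wild-type libraries without RU521 had the highest sums of all ganglion groups. These sums were 10080 to 16050 CPM in wild-type sham, 10510 to 11000 in knockout sham and 10190 to 12900 in knockout injured ganglia. The part of the neuron and Schwann cell markers in the Klf7 result was not tested beyond the values given.

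Klf15, on chromosome 6 (90462576 to 90475238, plus strand), stood at 9.45, 7.38 and 6.88 CPM with RU521, against 15.6, 15.6 and 15.5 CPM in injured ganglia without it. The log2 difference was -0.97 ± 0.23 (adjusted p = 0.0158), with no overlap. The call ended without injured replicate 2 or 3 (adjusted p = 0.0593 and 0.057) or RU521 replicate 3 (0.0728). Against sham ganglia (10.5, 15.5 and 11.1 CPM) the RU521 libraries were also lower, with a log2 difference of -0.64 ± 0.23 that missed the threshold (adjusted p = 0.166). Of 11 glucocorticoid-induced genes, 2 fell with Klf15 under RU521 and none rose: the kinase Sgk1 (-1.07 ± 0.17) and the EGF receptor inhibitor Errfi1 (-0.72 ± 0.16). Endothelial marker sums were lower as well, at 174 to 182.5 CPM with RU521 against 283 to 304 CPM without it, and 3 of 10 endothelial markers fell.

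Klf6 was at 130, 158 and 124 CPM with RU521, above every sham library and overlapping the injured libraries without it (145, 195 and 179 CPM). The difference was -0.33 ± 0.14 against injured (adjusted p = 0.136) and 0.44 ± 0.14 against sham ganglia (0.113). These comparisons share control libraries with the injury comparison. In RU521-treated injured against sham ganglia 0 members were called by edgeR, where 2.39% of genes were; 3 members had an unadjusted p under 0.05, DESeq2 called 1 (Klf6) and limma-voom called 4 (Klf6, Klf9, Klf10 and Klf15). The other members under RU521 differed from injured ganglia by -0.46 ± 0.56 (Klf4) to 0.18 ± 0.17 (Klf13) with no call.

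**Figure D3:**
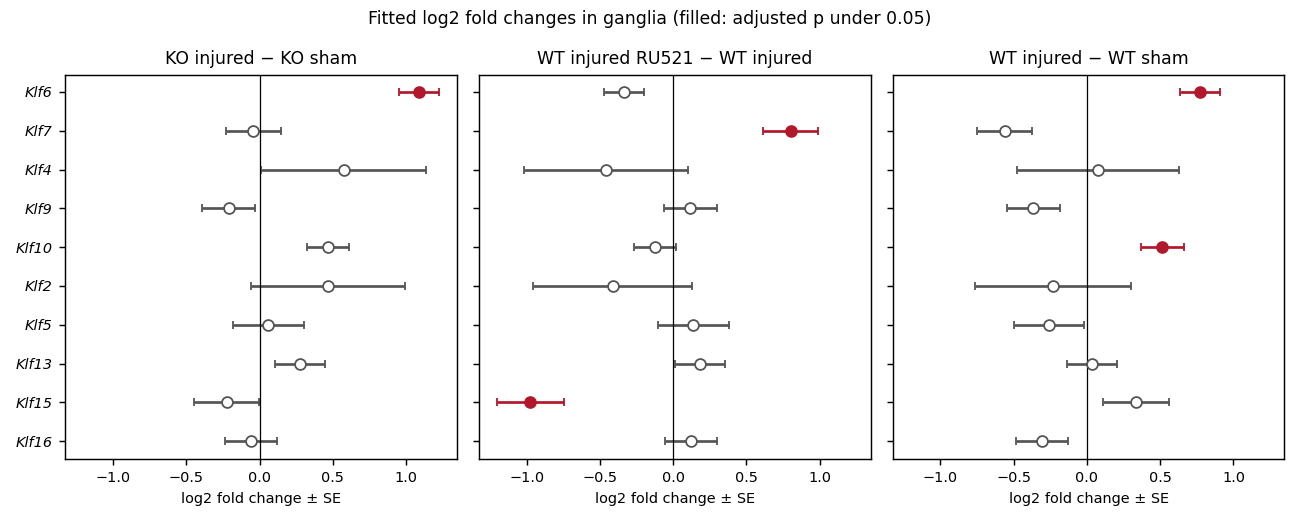
Fitted log2 fold change ± SE (x axis) of each member (y axis) for injury in knockout, RU521 in injured wild type and injury in wild type; filled points have an adjusted p under 0.05. Klf6 is called for injury in both genotypes, Klf10 in wild type, and Klf7 and Klf15 on opposite sides of 0 under RU521.

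No member was called between genotypes in ganglia. With sham surgery 0 of 10 members and 0.135% of genes were called; 1 member had an unadjusted p under 0.05, DESeq2 called 0 and limma-voom 2. That member was Klf15, at 19.9, 26.5 and 14.9 CPM in knockout sham against 10.5, 15.5 and 11.1 CPM in wild-type sham ganglia. Its log2 difference was 0.73 ± 0.22 (adjusted p = 0.268), or 0.93 without wild-type sham replicate 2 (0.0321). Adipocyte markers differed as well, with 3 of 7 called. Their sum was 174 to 286 CPM in knockout sham against 16.0 to 185 CPM in wild-type sham ganglia. Among wild-type sham libraries it was highest in replicate 2, as was Klf15. Among knockout sham libraries replicate 3 had the highest adipocyte sum (286 CPM) and the lowest Klf15 (14.9 CPM). Klf15 is highly expressed in fat, and the part of these markers was not tested.

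After injury 0 of 10 members and 2.2% of genes differed between genotypes; 2 members had an unadjusted p under 0.05, DESeq2 called 0 and limma-voom 2 (Klf6 and Klf13). Klf6 was at 208 to 230 CPM in knockout and 145 to 195 CPM in wild-type injured ganglia, without overlap, a difference of 0.36 ± 0.14 (adjusted p = 0.246). Klf13 was at 289 to 404 CPM against 255 to 266 CPM, a difference of 0.40 ± 0.17 (adjusted p = 0.325). Klf7 was at 203 to 238 CPM against 166 to 190 CPM, a difference of 0.30 ± 0.19 (adjusted p = 0.538). Klf2 was at 4.43 to 5.69 CPM against 2.59 to 3.22 CPM, the largest difference of the 10 members at 0.84 ± 0.53 (adjusted p = 0.549). Klf2, Klf6, Klf7 and Klf13 did not overlap between the genotypes. A fit of these 2 groups alone called 3 of them, with adjusted p of 0.0494 for Klf6, 0.0366 for Klf13 and 0.0461 for Klf7. The shares of all genes without overlap, or called by that fit, are not given here, so neither count has a background. Of 13 reported KLF target genes, 1 was called in the same comparison, and their median log2 difference was -0.09, against -0.01 for all genes. That gene was Ccl5, a Klf13 target in T cells, at 151, 47.5 and 39.2 CPM in knockout against 3.24, 1.87 and 2.45 CPM in wild-type injured ganglia (4.97 ± 0.62, adjusted p = 0.00026).

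The balance of growth-promoting over growth-suppressing members was described as a difference of log2(CPM + 0.5) within each library. Klf6 minus Klf9 was 2.14, 1.98 and 1.68 in knockout injured and 0.48, 0.72 and 0.69 in knockout sham ganglia. In wild type it was 1.38, 2.02 and 1.69 after injury and 0.87, 0.44 and 0.46 after sham surgery, and with RU521 it was 0.79, 1.74 and 1.32. For this pair both injured groups without RU521 thus lay wholly above both sham groups. Klf6 minus Klf4 averaged 5.36 ± 0.12 in injured and 4.79 ± 0.25 in sham knockout ganglia, without overlap (SD, n = 3 each). In wild type it averaged 5.03 ± 0.29 after injury and 4.83 ± 1.37 after sham surgery, with overlap. Klf7 minus Klf9 overlapped in both genotypes. It averaged 1.91 ± 0.16 in injured and 1.74 ± 0.11 in sham knockout ganglia, and 1.74 ± 0.16 and 1.94 ± 0.54 in wild type. Klf7 minus Klf4 ran the other way in knockout, at 5.31 to 5.40 after injury and 5.82 to 5.98 after sham surgery. It was 6.17 to 6.34 with RU521, 4.93 to 5.23 in wild-type injured ganglia, and spread over 4.24 to 7.49 in wild-type sham ganglia, where replicate 2 gave the lowest value. The mean of Klf6 and Klf7 minus the mean of Klf4 and Klf9 averaged 3.64 ± 0.09 in knockout injured, 3.26 ± 0.08 in knockout sham, 3.77 ± 0.20 with RU521, 3.39 ± 0.21 in wild-type injured and 3.38 ± 0.95 in wild-type sham ganglia (SD, n = 3 each). In wild type the joint index thus differed between injured and sham ganglia by far less than its spread, while Klf6 alone rose.

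**Figure D4:**
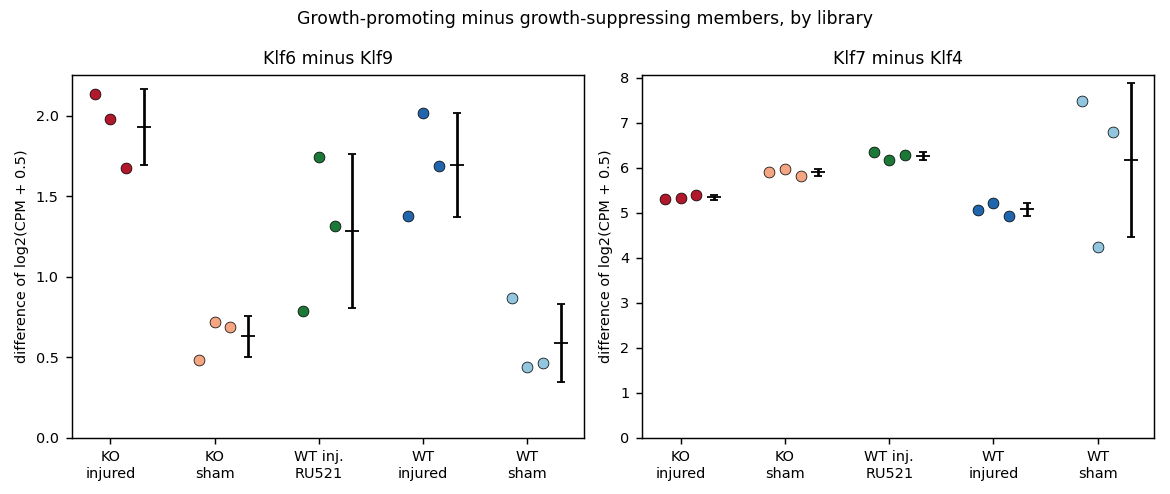
Difference of log2(CPM + 0.5) between Klf6 and Klf9 (left) and between Klf7 and Klf4 (right) in the 5 ganglion groups; each point is 1 library and bars are mean ± SD of 3. The injured groups without RU521 are above the sham groups on the left, and on the right the 3 wild-type sham libraries span more than the other groups together.

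Among the 11390 tested ganglion genes with a mean of 5 CPM or more, those whose log2 level followed a member most closely over the 15 libraries differed by member. They were Arpc2, Arpc1b and Esd for Klf6 (Pearson r of 0.980, 0.978 and 0.967), and Cisd3, Kif21a and Gng3 for Klf7 (0.982, 0.982 and 0.974). For Klf4 they were Rps3a1, Cenpb and Eef1a1 (0.945, 0.931 and 0.922), and for Klf9 Pgrmc2, Ppp1r37 and Socs5 (0.893, 0.885 and 0.879). Among members, Klf6 and Klf10 had an r of 0.797, Klf9 and Klf10 one of -0.71 and Klf6 and Klf7 one of -0.40. These libraries share group, cell make-up and depth, and the coefficients describe them only.

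Of 16 other KLF and SP family genes, 10 were tested in ganglia and 1, Klf1, rose with injury in wild type. Klf1, the erythroid member, was at 23.0, 30.8 and 28.0 CPM in injured and 4.14, 7.60 and 3.31 CPM in sham ganglia (2.45 ± 0.41, adjusted p = 0.00214). All 5 red blood cell markers rose with it, with sums of 10700 to 10770 CPM against 1186 to 6495 CPM. In knockout ganglia none of the 10 was called with injury; Klf1 was at 18.4 to 22.2 CPM in injured and 9.57 to 17.6 CPM in sham libraries.

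Of 13 co-repressors and partners of KLFs, Hdac1 rose (0.51 ± 0.15) and Ctbp1 fell (-0.71 ± 0.22) with injury in wild type, Sap30 rose in knockout (2.12 ± 0.48), and Hdac1 fell under RU521 (-0.70 ± 0.15). Of 13 reported KLF target genes, Cdkn1a and Gap43 rose with injury in wild type. Cdkn1a, the cell-cycle inhibitor p21, was at 197, 248 and 238 CPM in injured and 109, 147 and 107 CPM in sham wild-type ganglia (0.92 ± 0.14), and at 122, 138 and 129 CPM with RU521, lower than in injured ganglia (-0.81 ± 0.14). Gap43, an axon growth protein, rose by 1.73 ± 0.19 in knockout and 1.06 ± 0.18 in wild type. In knockout 3 targets rose (Gap43, Cdkn1a and Ccl5) and 2 fell (S1pr1 and Ntrk2). Under RU521, Cdkn1a and Eng fell.

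Immediate early genes, which are induced in minutes by stimulation and which Klf6 and Klf10 resemble in other cells, rose in 2 of 12 cases in knockout and 6 of 12 in wild type after injury, and 4 fell under RU521. Btg2 rose by 1.60 ± 0.29 in wild type, and Egr1 fell under RU521 (-0.99 ± 0.19). Of 7 TGF-beta response genes, 3 rose in knockout, among them Skil (0.85 ± 0.18) and Tgfbi (1.25 ± 0.30), 0 were called in wild type with injury and 2 fell under RU521 (Ccn2 and Tgfbi). Their median injury change was 0.67 in knockout and 0.57 in wild type, where the summed levels were 214 to 239 CPM in injured ganglia and 102, 259 and 122 CPM in sham ganglia, with sham replicate 2 the highest. Of 7 injury transcription factors, 3 rose in knockout and 4 in wild type; Atf3 rose by 3.99 ± 0.38 in knockout and 5.21 ± 0.41 in wild type. Of 11 glucocorticoid-induced genes, 3 rose and 3 fell in knockout, and 2 rose in wild type (Dusp1 and Sgk1).

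In retinal ganglion cells, all of them injured, no member was called in any comparison. Klf6 was the highest member per kilobase in all 4 groups, at 53.9 ± 10.1 CPM per kb in knockout with IFNγ, 42.7 ± 13.0 in knockout with PBS, 35.5 ± 3.06 in wild type with IFNγ and 67.3 ± 33.5 in wild type with PBS (SD, n = 3 each). Its range lay above that of the next member in each group. Klf7 was next in 3 groups and at place 4 in knockout with IFNγ, and it could not be told apart from Klf9 in any group, since their ranges overlapped. Klf6, Klf7, Klf9 and Klf13 were detected in all 12 libraries; the other 6 members were at 0 counts in at least 1. Klf13, among the top 3 members in every ganglion group, held places 3 to 5 here; the tables were normalized separately, so only ranks are set side by side.

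IFNγ effects were not called for any of the 9 members tested, with 0% of 13487 genes called in wild type and 0% in knockout; 2 members (Klf5 and Klf6) had an unadjusted p under 0.05 in wild type and 0 in knockout. DESeq2 called Klf5 in wild type and no member in knockout, and limma-voom called none in either. Klf6 was at 163, 140 and 164 CPM with IFNγ and at 206, 465 and 216 CPM with PBS in wild type, without overlap (-0.93 ± 0.39, adjusted p = 1). In knockout it was at 259, 266 and 186 CPM with IFNγ and at 218, 122 and 223 CPM with PBS (0.34 ± 0.39). The interaction was 1.26 ± 0.55 (adjusted p = 0.915), with 0 members and 0% of genes called; 2 members had an unadjusted p under 0.05, and neither DESeq2 nor limma-voom called any.

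Klf7 ran in the other direction, without a call. In knockout it was at 25.3, 58.9 and 45.8 CPM with IFNγ and at 53.4, 119 and 27.8 CPM with PBS, and in wild type at 138, 138 and 74.1 CPM with IFNγ and at 48.7, 70.2 and 75.9 CPM with PBS. Every knockout library with IFNγ lay below every wild-type library with IFNγ, a difference of -1.43 ± 0.55 (adjusted p = 0.913). In that comparison 0 members and 0% of genes were called; 2 members, Klf5 and Klf7, had an unadjusted p under 0.05, DESeq2 called Klf5 and limma-voom none. Between knockout with IFNγ and wild type with PBS, 0 members and 0.0519% of genes were called, no member had an unadjusted p under 0.05, and DESeq2 and limma-voom called none.

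The suppressors differed from each other in detection. Klf9 was at 57.0, 33.5 and 44.1 CPM in knockout with IFNγ, 6.498, 64.4 and 35.6 CPM in knockout with PBS, 35.0, 40.3 and 45.8 CPM in wild type with IFNγ and 39.1, 22.1 and 40.9 CPM in wild type with PBS. Klf4 was at 0 counts in 7 of the 12 libraries, among them all 3 of wild type with PBS. Where detected it had 20 to 125 counts, or 1.24 to 6.98 CPM, and each of the other 3 groups held at least 1 library at 0. Klf13 was at 30.6, 36.3 and 47.1 CPM in knockout with PBS and 11.6, 27.9 and 27.7 CPM in wild type with PBS, without overlap (0.76 ± 0.65, adjusted p = 0.815). In that comparison 0 members and 0.0222% of genes were called; no member had an unadjusted p under 0.05, and DESeq2 and limma-voom called none.

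Klf5 was at 0 counts in all 3 wild-type libraries with IFNγ, against 54, 46 and 88 counts (5.17, 2.69 and 6.49 CPM) in wild type with PBS. Taking 3 counts per library as the floor, its mean was at least 22.96-fold lower with IFNγ than with PBS in wild type. With IFNγ it was at least 17.29-fold higher in knockout, where it had 49, 5 and 107 counts, than in wild type. Neither difference passed the edgeR test (adjusted p = 1 and 0.913), and both did in DESeq2 (0.0232 and 0.0369). Other members had zeros as well: Klf16 was at 0 in 8 libraries and Klf15 in 5, neither in all 3 of any group. Klf4 was at 0 in all 3 of wild type with PBS, as given above.

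Klf2 did not pass the filter on low counts, and 138 of its 144 counts over the 12 libraries were in knockout replicate 2 with PBS. That library stood apart, with a macrophage marker sum of 4085 CPM, against 6.47 to 199 CPM in the other 11, and a Müller glia marker sum of 2043 CPM, against 39.6 to 733 CPM. It also held the most Klf5 (322 counts) and the most Klf9 of any library (64.4 CPM). Without it, as with it, 0 members were called in the 3 comparisons that use it. Klf10 was at 5.07, 34.4 and 7.45 CPM in knockout with IFNγ, 14.8, 6.44 and 0.84 in knockout with PBS, 0, 0.53 and 5.70 in wild type with IFNγ and 5.55, 0.996 and 0 in wild type with PBS, so that its groups overlapped.

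**Figure D5:**
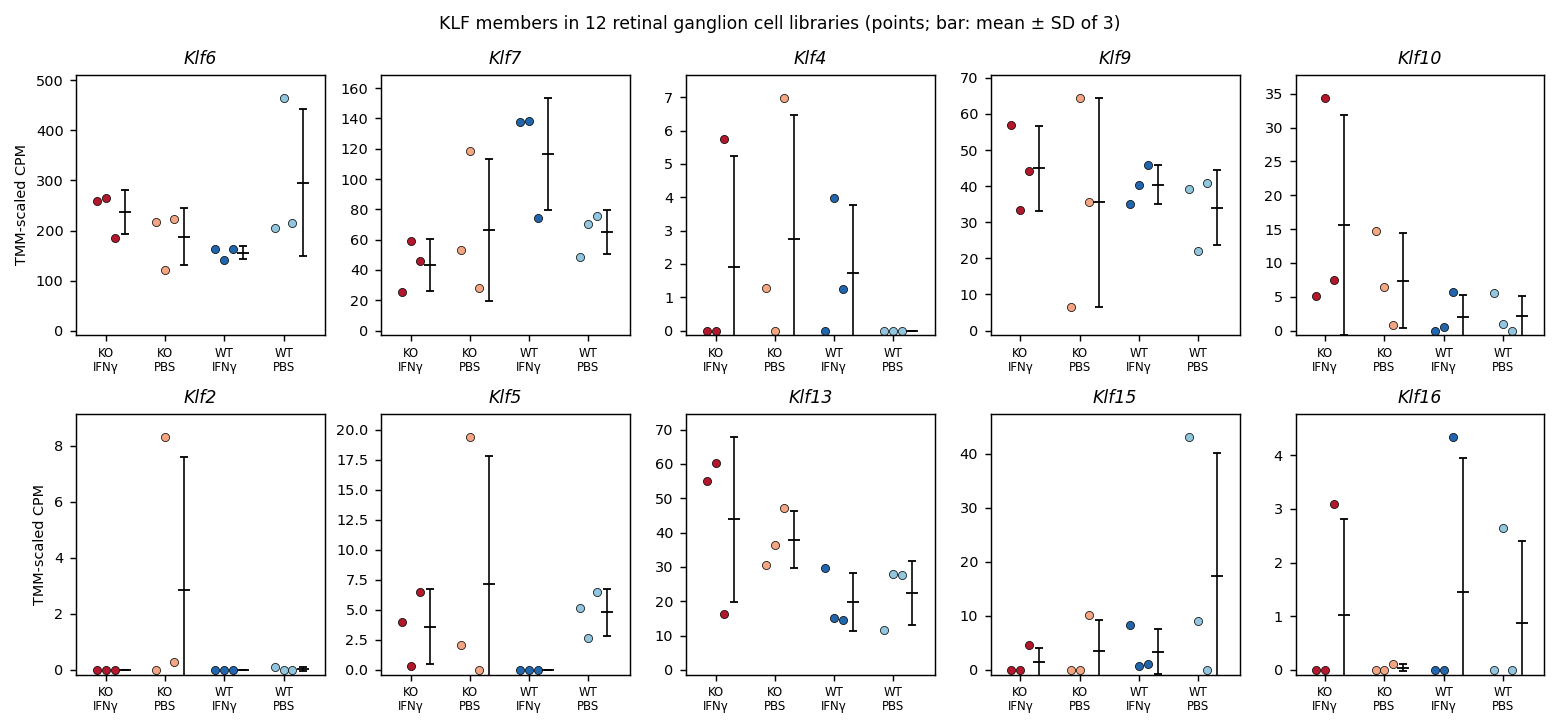
Level of each member (y axis, TMM-scaled CPM) in the 4 groups of retinal ganglion cell libraries (x axis); each point is 1 library and bars are mean ± SD of 3, cut off at the foot of a panel where they reach below 0. Klf6 reaches 121.6 CPM or more in every library, whereas Klf2, Klf4, Klf15 and Klf16 are at 0 in several.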

How the data were processed

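The values are the authors' deposited raw counts, a column for each library and a row for each gene symbol. Ganglion cDNA was made with SMART-Seq v4 and Tn5 and retinal cDNA with Smart-seq2, per the labels' protocols. The submitters' processing notes name Trim Galore, STAR and the build GRCm38 (mm10). Ganglion counts came from featureCounts 2.0.1 without regard to strand, per the file headers; the program behind the retinal counts is not stated. The retinal table's last line, with no gene name, equals the column sums (50% of the file total) and was left out. Klf7 shares 4 exonic bases with Gm13748, and the other members share none.

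Each table was fitted with edgeR 4.0.16 in R 4.3.3 over all its groups: TMM scaling, filterByExpr (minimum count 10, minimum total 15), robust quasi-likelihood tests and Benjamini-Hochberg adjustment. The biological coefficient of variation was 0.262 in ganglia and 1.27 in retinal cells. The fit was also run on counts simulated from its own estimates of spread. That run can check the code only, and its outcome is not reported here. Alternatives included DESeq2 1.42.0 and limma-voom (limma 3.58.1). Members and lists were chosen with earlier results of these data known. Named genes beyond the members are the 3 closest in correlation to Klf4, Klf6, Klf7 and Klf9, and up to 3 called genes with the smallest p per list, with a few more list genes named after their values were seen. Deviations of same-numbered ganglion libraries from their group means had r of -0.116 to 0.267, against -0.266 to 0.21 for differently numbered ones. Numbers were not treated as pairs in the main fit. Replicate 1 had the lowest mitochondrial share and the highest sensory neuron marker sum within each ganglion group. What the numbers mark is not stated, and a shared batch was tested only by adding the number to the model. Floors and fold bounds cover counting error only. Results for some listed genes are not reported here.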

Additional observations from a re-analysis of the deposited data

How the results depend on the processing

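Klf6 rose with injury under all 14 alternatives in wild type (adjusted p 3.43e-06 to 0.0287) and all 13 in knockout. Klf10 in wild type was called in 8 of 14, and under RU521 Klf7 in 9 of 13 and Klf15 in 10 of 13, with no change of direction. For injury in wild type 2 members were called, but 7 with limma-voom, 1 with detected genes as a covariate, and 1 to 5 when single libraries were left out. Calls over all genes moved as well, from 3070 of 18517 to 9264 with limma-voom, 847 with the covariate and 1240 to 6513 without single libraries. For injury in knockout 1 was called, but 2 with DESeq2, limma-voom, that covariate or only the groups compared. Those 4 fits called 2929, 4417, 3114 and 4102 of all genes, against 2021 in the main fit. For RU521 against sham 0 were called, but 1 with DESeq2, 4 with limma-voom, 3 without wild-type sham replicates 1 and 3, and 0 to 2 with single libraries left out. For RU521 against injured 2 were called, and 0 to 2 with single libraries left out. For knockout in sham 0 were called, but 2 with limma-voom, 2 without sham replicates 1 and 3, and 0 to 2 with single libraries left out. For knockout in injured ganglia 0 were called, but 2 with limma-voom, 1 with the covariate and 3 with only the groups compared. For the interaction 0 were called, but 1 with limma-voom and 2 without sham replicates 1 and 3. In retinal cells DESeq2 called 1 for IFNγ in wild type and 1 for knockout with IFNγ, against 0. Beyond injury in wild type and injury in knockout, calls over all genes in the alternative fits are not given here. The member counts of those fits therefore have no background. The wild-type injury change of Klf2 turned to 0.97 with limma-voom, and ran from -0.69 to 1.16 with single libraries left out. The Klf4 difference of RU521 against sham (-0.38) ran from -0.85 to 1.15 with single libraries left out and was 0.84 with limma-voom. It was called in opposite directions without sham replicate 2 (1.15, adjusted p = 0.0338) and without sham replicates 1 and 3 (-1.57, 0.00988). Apart from the named omissions, the cause was not tested. With the replicate number in the model as a block, the wild-type injury change of Klf7 was -0.54 and called (adjusted p = 0.0436). The 13 comparisons kept counts within 1.5 times. What the numbers mark is not stated, as given above. As log2 of summed CPM the growth balance was 2.81, 2.23, 2.90, 2.60 and 2.35 in knockout injured, knockout sham, RU521, wild-type injured and wild-type sham ganglia. Klf2 and Klf4 had the fewest counts of the members, at 22 to 172 per ganglion library. In wild-type sham replicates 1, 2 and 3 the counts were 22, 121 and 29 for Klf2 and 27, 172 and 37 for Klf4. The part of depth in their results was not tested, and 3 libraries per group limit every test.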
